A study of Mus musculus with 10 samples.

Results

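The chromatin around 8 genes for transcription factors of retinal bipolar cells was examined: Vsx1, Prdm8, Isl1, Bhlhe22, Bhlhe23, Lhx3, Lhx4 and Irx5. Every peak that the deposited annotation assigned to 1 of these genes was taken, at promoters and elsewhere, which gave 23 of the 108253 peaks in the table. All 8 genes had at least 1 peak, among 25400 genes with a peak. Retinas of wild-type C57BL/6J mice at postnatal day 28 had been cultured as explants for 48 hours in medium with 5 mM or 25 mM glucose. The sclera and pigment epithelium had been removed before culture. Histone H3 lactylated at lysine 18 (H3K18La, 3 libraries per glucose level) or acetylated at lysine 27 (H3K27Ac, 2 libraries per glucose level) was profiled by CUT&Tag, in which an antibody directs a transposase to the marked chromatin, with 500000 dissociated cells per assay. The comparison of 25 mM with 5 mM glucose asked how the supply of glucose, from which retinal cells make lactate, is reflected in the marks. Values are RPKM, the reads of a peak scaled to 1 kb of peak and to 1000000 reads of the library.

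Bipolar cells are the interneurons that carry signals from photoreceptors to amacrine and ganglion cells. Rod bipolar cells and several types of cone bipolar cells divide this work, and the types that depolarize to light (ON) and to dark (OFF) form separate pathways. Their identity is set in development by homeodomain, basic helix-loop-helix (bHLH) and PR-domain factors, most of which stay expressed in the adult. H3K27Ac is a mark of active promoters and enhancers, and H3K18La is a mark derived from lactate that is also found at active promoters and enhancers. Since whole retinas were assayed, in which rods are by far the most abundant neurons, a smaller number of bipolar cells and less mark per bipolar cell cannot be told apart. The labels present the libraries as separate samples but do not say whether they came from separate animals, so p-values measure the spread between libraries.

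The genes were covered unevenly. Prdm8 held 8 of the 23 peaks and Lhx4 held 6, where the median gene of the table had 2. At least as many peaks as Prdm8 were found for 13.1% of genes, and at least as many as Lhx4 for 19.4%. Irx5 had 3 peaks and Lhx3 had 2. Vsx1, Bhlhe22, Bhlhe23 and Isl1 had 1 peak each, and those of Bhlhe23 and Isl1 were intergenic, so that 6 of the 8 genes had a promoter peak. Peaks are numbered below along the chromosome within each gene, with coordinates of the GRCm38 build.

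The sequences on which the strongest contrast rests came from the RefSeq GRCm38.p6 genome and are printed 5′ to 3′ on the strand of the gene. They are the 300 bases before the Prdm8 gene start, inside its strongest promoter peak (chr5:98166898-98167197, plus strand), the central 300 bases of Prdm8 peak 3 in the first intron (chr5:98168656-98168955, plus strand), where both marks rose most with glucose, and the 201 bases from the Lhx3 gene start to the outer edge of its promoter peak (chr2:26208290-26208490, minus strand), where H3K18La fell. Capitals mark the motif GGATTA or its complement TAATCC, the core bound by the retinal homeodomain factors OTX2 and CRX.
Prdm8, before the gene start: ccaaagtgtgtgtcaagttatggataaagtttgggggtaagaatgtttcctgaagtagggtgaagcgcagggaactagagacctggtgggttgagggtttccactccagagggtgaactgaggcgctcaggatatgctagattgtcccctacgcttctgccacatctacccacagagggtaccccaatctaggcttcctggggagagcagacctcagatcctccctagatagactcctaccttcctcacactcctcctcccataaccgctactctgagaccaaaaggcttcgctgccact
Prdm8, centre of peak 3: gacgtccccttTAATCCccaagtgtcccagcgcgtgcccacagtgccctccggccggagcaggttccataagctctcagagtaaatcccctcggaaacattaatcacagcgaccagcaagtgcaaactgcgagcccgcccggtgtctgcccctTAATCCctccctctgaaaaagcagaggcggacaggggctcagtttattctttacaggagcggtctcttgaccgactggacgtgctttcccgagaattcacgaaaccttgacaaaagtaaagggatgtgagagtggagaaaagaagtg
Lhx3, before the gene start: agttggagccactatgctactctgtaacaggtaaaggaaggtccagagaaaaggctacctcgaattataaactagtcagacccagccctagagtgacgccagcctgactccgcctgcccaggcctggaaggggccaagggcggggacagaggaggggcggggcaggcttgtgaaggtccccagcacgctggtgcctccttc

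Of 4 short motifs searched on both strands, only GGATTA was found in these windows, with 2 matches in the Prdm8 peak 3 window and none in the other two, although the central 300 bases of the Lhx3 promoter peak, which reach beyond the printed window, also held it. The other motifs were TAATTA, a core of many homeodomain factors, and the E-boxes CAGATG, which reads as CATCTG on the opposite strand, and CATATG, of the kind bound by neuronal bHLH factors. TAATTA and TAATCC share the letters TAAT. Over the central 300 bases of all peaks, 11.5% held GGATTA, 5.10% held TAATTA, 25.2% held CAGATG and 6.13% held CATATG. Of the 23 peaks described here, 5 held GGATTA, 2 held TAATTA, 4 held CAGATG and 3 held CATATG in that window. Prdm8 peak 2 was 1 of the 4 with CAGATG, which was not within the stretch printed above. The Prdm8 peak 3 window held 16 CpG, against 5 in the window before the gene start. The whole of Prdm8 peak 3 had a GC content of 55.3%, where the median of all non-promoter peaks was 48.8%. Among the promoter peaks, GC content ranged from 51.6% at Prdm8 peak 7 to 71.9% at Irx5 peak 1, around a median of 57.5% for all promoter peaks.

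With 25 mM glucose, H3K18La rose at 7 of the 23 peaks, and all 7 belonged to Prdm8. The mark was called lower at 1 peak, the Lhx3 promoter, on 8 reads in all at 5 mM and no read at 25 mM. In the whole table, 20.6% of peaks were called higher for H3K18La and 0.117% were called lower. H3K27Ac rose at 12 of the 23 peaks, the 8 of Prdm8, 3 of Lhx4 and 1 of Irx5, and fell at none. The share of all peaks called higher for H3K27Ac was 16.4%. The test was limma on log2(RPKM + 0.5) over all peaks with Benjamini-Hochberg adjustment and a threshold of 0.05, and log2 differences below are on this scale, which understates changes at weak peaks. All 12 H3K27Ac calls were lost when any 1 of the 4 libraries was left out and when the moderation was not robust, and in each of these fits no peak of the table was called. The H3K27Ac differences below carry this limit. When libraries were scaled to reads in peaks, no peak of the table was called for either mark, and the median H3K18La difference of the Prdm8 peaks went from 1.84 to 0.59.

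**Figure D1:**
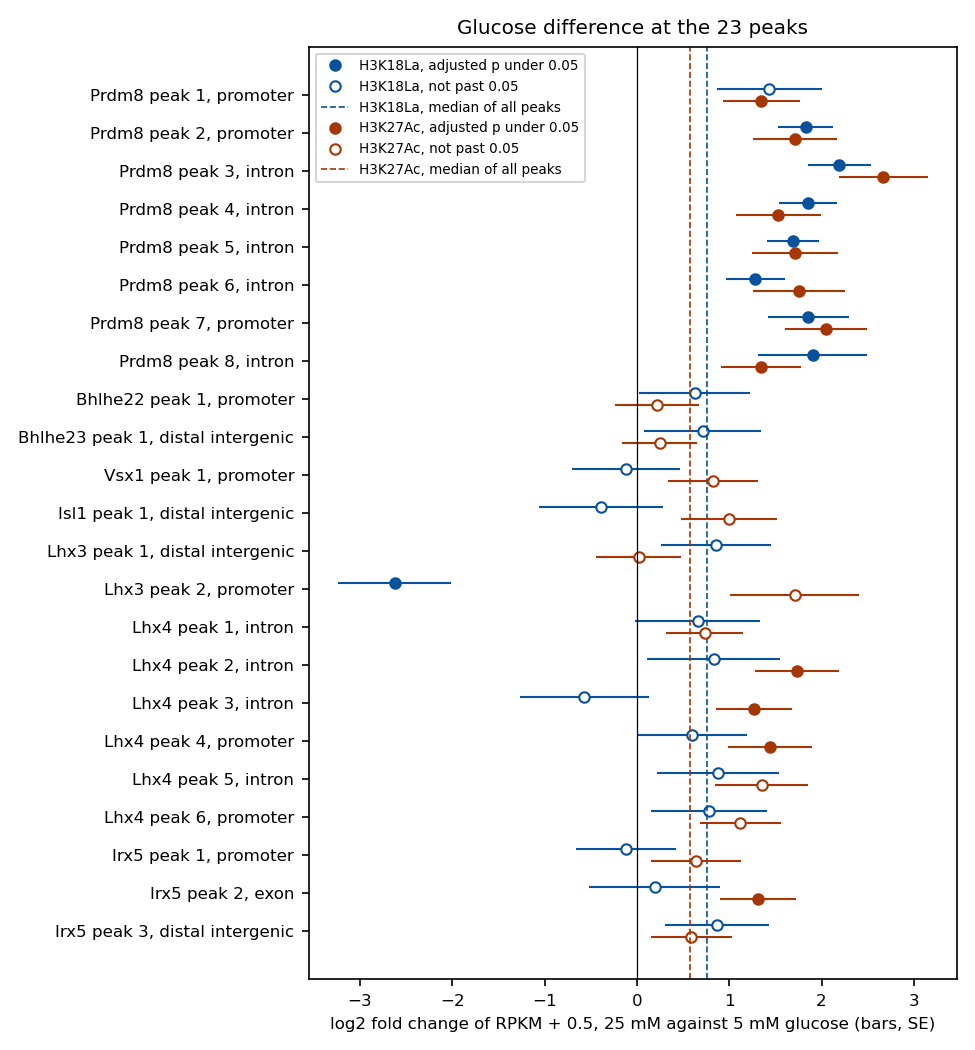
Log2 fold change of RPKM + 0.5 between 25 mM and 5 mM glucose (x axis) at each of the 23 peaks (rows), for H3K18La (blue) and H3K27Ac (brown), with bars of 1 SE. Filled points passed an adjusted p of 0.05, dashed lines are the medians of all 108253 peaks, and the 8 Prdm8 peaks lie to the right of both lines while the Lhx3 promoter is far to the left for H3K18La.

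Prdm8 encodes a PR-domain repressor required for rod bipolar cells and for a class of OFF cone bipolar cells. Its strongest promoter peak (peak 2, chr5:98166636-98167957) covers the gene start. H3K18La there measured 2.87, 2.34 and 2.23 RPKM in the 5 mM libraries and 11.9, 8.93 and 9.44 RPKM in the 25 mM libraries. H3K27Ac measured 5.25 and 6.70 RPKM at 5 mM and 26.1 and 16.2 RPKM at 25 mM. Every 25 mM library thus lay above every 5 mM library of its mark. The log2 difference was 1.83 (SE 0.29, adjusted p = 0.000814) for H3K18La and 1.71 (SE 0.45, adjusted p = 0.0200) for H3K27Ac. Among all promoter peaks, the mean of this peak at 25 mM stood at the percentile 96.1 for H3K18La and 85.1 for H3K27Ac, against 94.2 and 78.4 at 5 mM.

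The first intron of Prdm8 carried the strongest marks of the 23 peaks. At peak 5 (chr5:98171522-98172083), H3K18La was 4.22, 3.09 and 3.93 RPKM at 5 mM and 17.2, 10.9 and 11.998 RPKM at 25 mM, and H3K27Ac was 8.64 and 11.2 RPKM at 5 mM and 36.9 and 30.2 RPKM at 25 mM. Both marks rose, by 1.69 (SE 0.28, adjusted p = 0.000946) and 1.71 (SE 0.46, adjusted p = 0.0217) on the log2 scale. Peak 3 (chr5:98168473-98169138), whose central sequence is printed above, had the largest rise of the 23 peaks for both marks. H3K18La was 1.42, 1.45 and 3.32 RPKM in its 5 mM libraries, from 2 to 5 reads each, and 9.93, 10.7 and 11.1 RPKM at 25 mM. H3K27Ac there was 3.47 and 7.74 RPKM at 5 mM and 43.0 and 29.9 RPKM at 25 mM. The log2 differences were 2.19 (SE 0.34, adjusted p = 0.000680) for H3K18La and 2.67 (SE 0.48, adjusted p = 0.0113) for H3K27Ac.

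A second Prdm8 promoter, of a shorter transcript that starts inside the gene (peak 7, chr5:98179501-98181754), was weaker. H3K18La was 0.631, 0.514 and 0.980 RPKM at 5 mM and 4.97, 3.38 and 3.29 RPKM at 25 mM. H3K27Ac was 2.26 and 4.50 RPKM at 5 mM and 17.0 and 13.0 RPKM at 25 mM. The log2 difference was 1.86 (adjusted p = 0.00840) for H3K18La and 2.05 (adjusted p = 0.0135) for H3K27Ac, close to those of the first promoter although the H3K18La level at 25 mM was 3.88 RPKM against 10.1 RPKM there.

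The remaining 4 peaks, numbers 1, 4, 6 and 8, had H3K18La differences of 1.44, 1.85, 1.28 and 1.91 and H3K27Ac differences of 1.35, 1.53, 1.75 and 1.34. Peak 1, whose near edge lies 784 bp upstream of the gene start, was the only Prdm8 peak that did not pass for H3K18La (adjusted p = 0.0919), with 0 to 2 reads in the 5 mM libraries. At peak 8 the H3K18La call was lost without replicate 2 or 3 at 5 mM or replicate 1 or 2 at 25 mM (adjusted p up to 0.148), and at peak 6 without replicate 3 at 25 mM (adjusted p = 0.0592). Peaks 2 to 5 and peak 7 kept their H3K18La call whichever of the 6 libraries was left out. The 2 glucose levels did not overlap at any of the 8 peaks in either mark. In the whole table, 36.6% of peaks were higher without overlap for H3K18La and 53.0% for H3K27Ac. The 8 peaks of 1 gene share their libraries and neighbouring chromatin and are not replicates of each other.

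**Figure D2:**
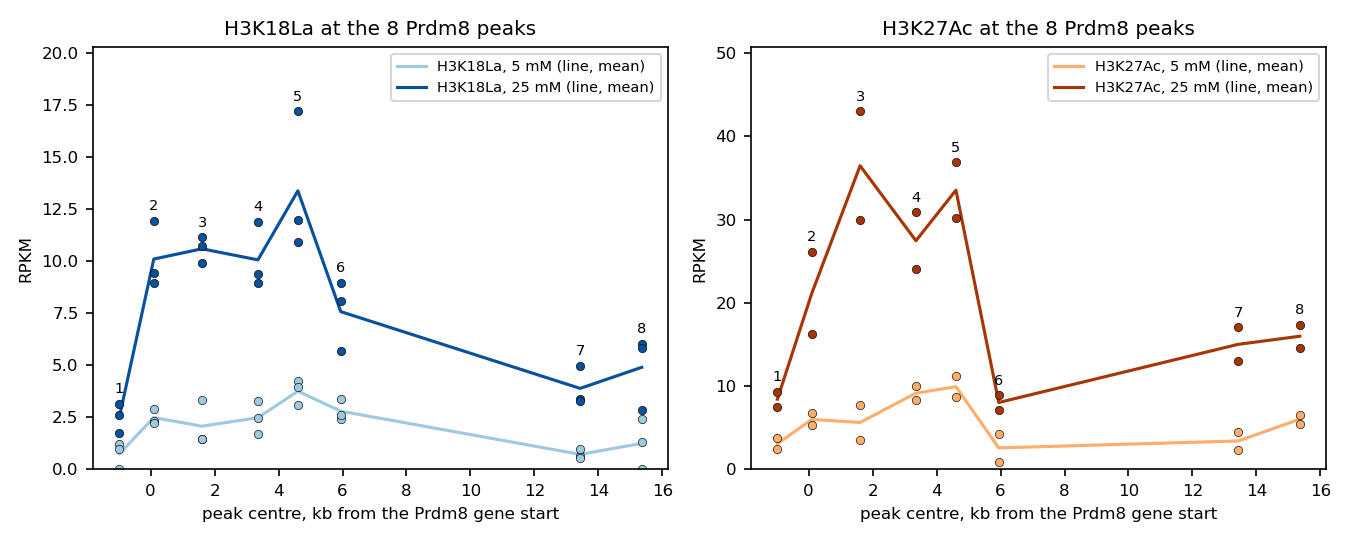
RPKM (y axis) of H3K18La (left) and H3K27Ac (right) at the 8 Prdm8 peaks, numbered, against the distance of the peak centre from the gene start in kb (x axis). Points are libraries and lines join group means: in both panels the 25 mM points lie above the 5 mM points at every peak, and peaks 2 to 5 are the highest at 25 mM.

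Within the Prdm8 gene body or 1 kb of it lay 2 further peaks that the annotation assigned to the antisense gene A730035I17Rik. They are not among the 23. At its promoter the log2 difference was 1.51 (adjusted p = 0.105) for H3K18La and 1.13 (adjusted p = 0.0607) for H3K27Ac. The other peak differed by 1.16 (adjusted p = 0.0820) and 1.37 (adjusted p = 0.0371). CUT&Tag reads carry no strand, so a mark at this end of the gene cannot be given to 1 of the 2 genes.

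Summed over its 8 peaks, Prdm8 took 52.6 to 65.3% of the reads of the 23 peaks in the 5 mM H3K18La libraries and 77.3 to 81.6% in the 25 mM libraries. For H3K27Ac its share was 66.7 and 73.5% at 5 mM and 80.4 and 80.5% at 25 mM. The share was thus higher at 25 mM in every library of both marks. It does not depend on how libraries are scaled, but it can depend on background reads, which weigh more in weak peaks. The part of reads outside peaks also differed between the glucose levels, and its part in this share was not tested.

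The pair of bHLH genes had no call in either mark. Bhlhe22 is needed by OFF bipolar cells and amacrine cells, and Bhlhe23 (also known as Bhlhb4) by rod bipolar cells for their survival. The Bhlhe22 promoter peak (chr3:18054054-18056030) measured 0.480, 0.390 and 0 RPKM of H3K18La at 5 mM and 1.03, 0.746 and 0.341 RPKM at 25 mM. Its H3K27Ac was 0.936 and 1.22 RPKM at 5 mM and 1.69 and 1.02 RPKM at 25 mM. The groups overlapped in both marks, and the log2 differences of 0.63 (SE 0.60, adjusted p = 0.508) and 0.21 (SE 0.45, adjusted p = 0.791) did not pass. At 25 mM this promoter stood at the percentile 10.5 of all promoter peaks for H3K18La and 14.6 for H3K27Ac.

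Bhlhe23 had no promoter peak, and the closest peak to its start, at 10647 bp, was assigned to Gm14343. Its 1 peak (chr2:180794278-180794913) lay 17378 bp upstream. H3K18La there was 2.24, 2.43 and 0 RPKM at 5 mM and 1.60, 2.71 and 2.12 RPKM at 25 mM, which overlapped. H3K27Ac was 3.64 and 3.80 RPKM at 5 mM and 4.15 and 4.87 RPKM at 25 mM. Replicates were close and did not overlap, but the log2 difference of 0.25 (SE 0.40, adjusted p = 0.723) did not pass. After the Prdm8 peaks, it had the highest H3K27Ac level of the 23 peaks at 25 mM.

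Vsx1, a homeodomain factor of cone bipolar cells, had 1 peak, at its promoter (chr2:150688411-150689439). Its H3K18La was 1.84, 0.563 and 0.716 RPKM at 5 mM and 1.48, 0.956 and 0.328 RPKM at 25 mM, from 1 to 4 reads per library. H3K27Ac was 0.674 and 0.469 RPKM at 5 mM, 3 reads in each, and 2.03 and 0.916 RPKM at 25 mM. The log2 difference was -0.11 (SE 0.58, adjusted p = 0.922) for H3K18La, whose libraries overlapped, and 0.83 (SE 0.49, adjusted p = 0.251) for H3K27Ac, whose libraries did not.

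Isl1, Lhx3 and Lhx4 encode LIM-homeodomain factors. Isl1 acts in ON bipolar cells, cholinergic amacrine cells and ganglion cells, whereas Lhx3 and Lhx4 are found in cone bipolar cells, Lhx4 with a role in their formation. Isl1 had no peak nearer to its start than 15462 bp, and its 1 peak (chr13:116293328-116294227) lay 4054 bp beyond the 3′ end of the gene. H3K18La there was 0, 0.858 and 0.818 RPKM at 5 mM and 0, 1.09 and 0 RPKM at 25 mM, with at most 4 reads in a library. H3K27Ac was 0.514 and 0.179 RPKM at 5 mM and 1.70 and 0.748 RPKM at 25 mM. Neither the H3K18La difference of -0.39 (SE 0.68, adjusted p = 0.730) nor the H3K27Ac difference of 1.00 (SE 0.52, adjusted p = 0.190) passed.

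At the Lhx3 promoter (peak 2, chr2:26208118-26208490, 373 bp) H3K18La fell, while H3K27Ac, which did not pass, had a difference of the opposite sign. H3K18La measured 1.27, 2.07 and 5.92 RPKM in the 5 mM libraries, which were 1, 4 and 3 reads, and no read in any of the 25 mM libraries. H3K27Ac measured 0 and 3.02 RPKM at 5 mM, 0 and 7 reads, and 3.73 and 3.97 RPKM at 25 mM, 10 and 11 reads. The H3K18La level was lower in all 3 of the 25 mM libraries, with a log2 difference of -2.62 (SE 0.61, adjusted p = 0.00791). Set against a floor of 3 reads per library, H3K18La was at least 1.05-fold lower at 25 mM. That bound rests on replicate 3 at 5 mM (5.92 RPKM), without which the 5 mM mean of 1.67 RPKM was under the floor of 2.93 RPKM. The H3K27Ac difference of 1.71 (SE 0.70) did not pass (adjusted p = 0.111), and it was 0.30 without replicate 1 at 5 mM, the library with no read, and 3.12 without replicate 2. It passed in 2 of 13 alternative fits. These were limma with a term for replicate number (adjusted p = 0.0105) and limma on peaks averaging 1 RPKM or more (adjusted p = 0.0023). This peak is short, its H3K18La rests on 8 reads in all, and the printed sequence overlaps an exon of the antisense gene Gm27196. The call held whichever of the 6 libraries was left out. Since no 25 mM library had a read, leaving 1 of these out could not change the difference of -2.62. The call was lost when libraries were scaled to reads in peaks (log2 difference -3.61, adjusted p = 0.400), where no peak of the table was called. The adjustment pooled both directions, and 22347 of the 22474 H3K18La calls were rises, so it does not set the error rate among falls alone.

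The other Lhx3 peak (peak 1, chr2:26198553-26199567) lay 645 bp beyond the 3′ end of the gene. H3K18La was 0.467, 0.190 and 0 RPKM at 5 mM and 0.501, 1.21 and 0.664 RPKM at 25 mM, and H3K27Ac was 2.05 and 1.27 RPKM at 5 mM and 2.74 and 0.929 RPKM at 25 mM. The H3K18La groups did not overlap, but the difference of 0.86 (SE 0.60, adjusted p = 0.343) did not pass, and H3K27Ac differed by 0.02 (SE 0.46, adjusted p = 0.994).

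Lhx4 had 6 peaks, 2 of them at promoters and 4 in introns, and only H3K27Ac separated the glucose levels. Its strongest promoter peak (peak 6, chr1:155751097-155752232) covers the gene start, and H3K27Ac there was 1.02 and 0.850 RPKM at 5 mM and 3.55 and 1.90 RPKM at 25 mM. H3K18La was 0, 0.679 and 0.648 RPKM at 5 mM and 2.24, 0.649 and 0.594 RPKM at 25 mM, where 1 library stood above the other 5. The log2 differences were 1.12 (SE 0.44, adjusted p = 0.0776) for H3K27Ac and 0.78 (SE 0.63, adjusted p = 0.425) for H3K18La. At the second promoter (peak 4, chr1:155740656-155742150) H3K27Ac was 0.464 and 0.539 RPKM at 5 mM and 2.70 and 1.80 RPKM at 25 mM, and rose by 1.44 (SE 0.46, adjusted p = 0.0362).

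In the introns of Lhx4, H3K27Ac rose at peaks 2 and 3. Peak 2 (chr1:155715653-155716266) measured 0.377 and 1.31 RPKM at 5 mM and 2.94 and 4.61 RPKM at 25 mM (log2 difference 1.73, SE 0.45, adjusted p = 0.0195). Peak 3 (chr1:155718897-155719938) measured 1.11 and 1.08 RPKM at 5 mM and 3.20 and 3.49 RPKM at 25 mM (log2 difference 1.27, SE 0.41, adjusted p = 0.0399), while its H3K18La difference was -0.57 (adjusted p = 0.611). The intron peak with the highest mean over the 10 libraries (peak 1, chr1:155711761-155712567) had H3K27Ac of 1.72 and 1.40 RPKM at 5 mM and 3.62 and 2.34 RPKM at 25 mM and did not pass (0.74, adjusted p = 0.229). H3K18La at the 6 Lhx4 peaks differed by -0.57 to 0.88, with adjusted p from 0.389 to 0.611, and had at most 7 reads in any library. The H3K27Ac groups did not overlap at any of the 6 peaks, where 53.0% of all peaks were higher without overlap.

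Irx5, an Iroquois homeodomain factor of a subset of OFF cone bipolar cells, had 3 peaks. Its promoter peak (peak 1, chr8:92358079-92358615) was among the weakest promoters of the table, with H3K18La of 0, 0.719 and 0 RPKM at 5 mM and 0, 0.458 and 0 RPKM at 25 mM. H3K27Ac was 0.431 and 1.20 RPKM at 5 mM and 2.07 and 1.00 RPKM at 25 mM. Neither difference passed (H3K18La -0.12, adjusted p = 0.913, and H3K27Ac 0.64, adjusted p = 0.385). In an exon (peak 2, chr8:92359125-92359858), H3K27Ac was 0.945 and 1.32 RPKM at 5 mM and 3.98 and 3.12 RPKM at 25 mM and rose by 1.31 (SE 0.42, adjusted p = 0.0362), while H3K18La differed by 0.19 (SE 0.71, adjusted p = 0.887). The intergenic peak 3 did not pass in either mark (0.87 and 0.59). A peak that ended 271 bp before the Irx5 start was assigned to the neighbouring Crnde and differed by 1.11 (adjusted p = 0.287) for H3K18La and 0.82 (adjusted p = 0.172) for H3K27Ac.

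**Figure D3:**
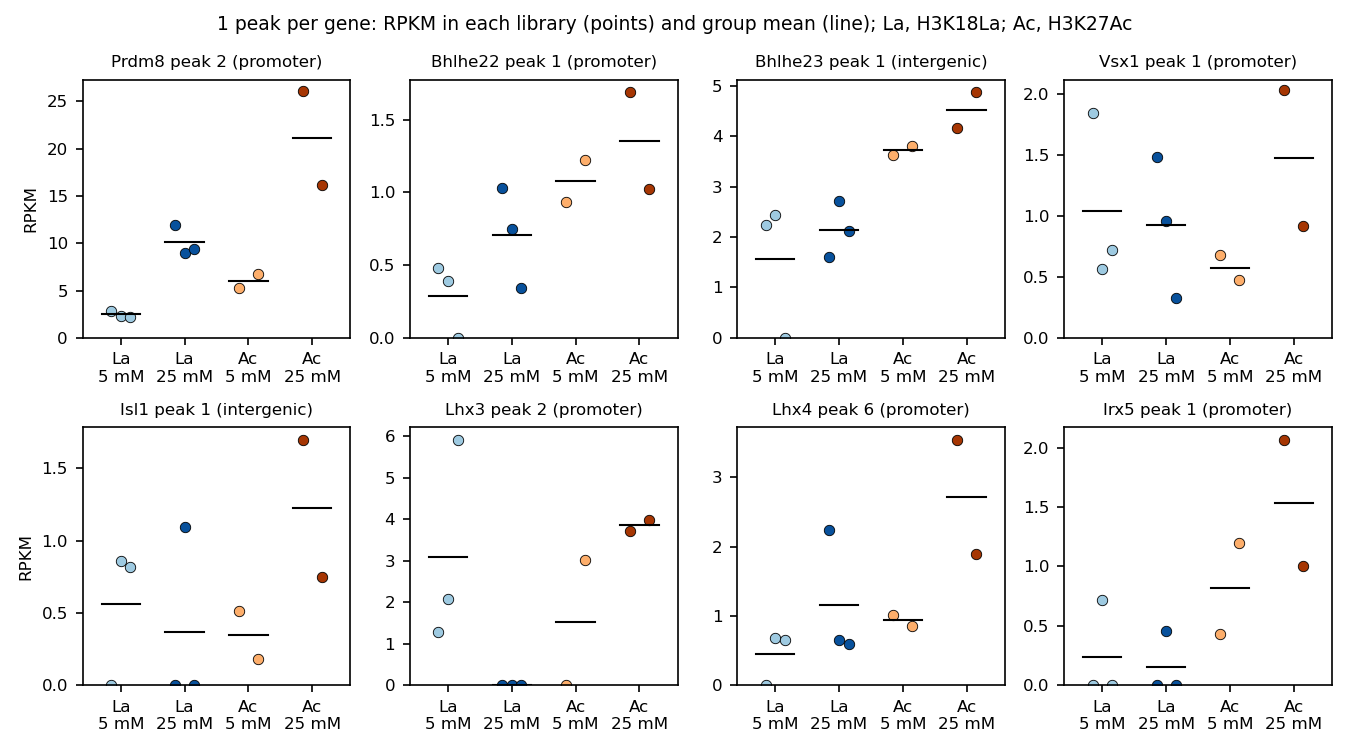
RPKM (y axis, scaled per panel) in each library (points) and group means (lines) for 1 peak per gene, the strongest promoter peak or, for Bhlhe23 and Isl1, the only peak. Prdm8 separates the glucose levels in both marks, Lhx3 has no H3K18La read at 25 mM, and the H3K18La points of the other 6 genes overlap between glucose levels.

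At 25 mM the Prdm8 peaks had higher levels of both marks than the peaks of the other 7 genes, and at 5 mM the levels overlapped. At 25 mM the mean H3K18La of its 8 peaks ranged from 2.50 to 13.4 RPKM, and that of the other 15 peaks from 0 to 2.14 RPKM. For H3K27Ac these ranges were 8.0 to 36.5 RPKM and 1.22 to 4.51 RPKM. At 5 mM they were 0.708 to 3.75 and 0.219 to 3.09 RPKM for H3K18La, and 2.55 to 9.91 and 0.346 to 3.72 RPKM for H3K27Ac. The log2 differences ran from 1.28 to 2.19 at the Prdm8 peaks and from -2.62 to 0.88 at the others for H3K18La, but overlapped for H3K27Ac, at 1.34 to 2.67 and 0.018 to 1.73. The median log2 difference was 1.84 for H3K18La and 1.71 for H3K27Ac over the Prdm8 peaks, and 0.63 and 1.00 over the other 15. Over all peaks of the table the medians were 0.76 and 0.58, and over the strongest promoter peak of each of 14562 genes 0.88 and 1.16. Of the 15 peaks of the other 7 genes, 6 had at most 3 reads in each 5 mM H3K18La library.

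Direct tests of whether the glucose difference differed between the marks called none of the 23 peaks. No peak of the table was called (0.0%, limma), although 4988 had an unadjusted p below 0.05, and voom on the recovered reads also called 0, with 7150 below 0.05. The Lhx3 promoter had the largest difference of the 23 (4.34, SE 1.02) and an adjusted p of 0.971. At the Prdm8 peaks the H3K27Ac difference minus the H3K18La difference ran from -0.56 at peak 8 to 0.48 at peak 3. Levels of the marks at 25 mM had an r of 0.89 and a rho of 0.79 over the 23 peaks on the log2 scale, and 0.20 and 0.26 over the 15 peaks without Prdm8. Over all peaks of the table r was 0.74 and rho was 0.73. The peaks share libraries and input chromatin, and the correlations are given as descriptions.

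How far these differences reached depended on the scaling. Reads inside the 108253 peaks made up 11.8 to 12.01% of the H3K18La libraries at 5 mM and 31.2 to 35.0% at 25 mM, and 21.1 and 31.5% against 69.5 and 56.5% for H3K27Ac. Scaled to 1000000 reads of the library (RPM), the Prdm8 peaks held 15.2, 11.6 and 12.5 reads of H3K18La at 5 mM and 60.5, 50.9 and 49.2 at 25 mM. Scaled to 1000000 reads in peaks they held 126, 97.3 and 106 at 5 mM and 173, 161 and 158 at 25 mM, which still did not overlap. For H3K27Ac the Prdm8 reads under the second scaling were 147 and 149 at 5 mM and 241 and 221 at 25 mM. This scaling lowers the whole table, whose median log2 difference went from 0.76 to -0.060 for H3K18La and from 0.58 to -0.26 for H3K27Ac. The 15 peaks of the other genes held 8.06, 10.4 and 8.84 RPM at 5 mM and 17.8, 12.5 and 11.1 RPM at 25 mM, but under the second scaling 67.1, 87.6 and 74.8 at 5 mM and 50.9, 39.7 and 35.7 at 25 mM. For H3K27Ac these peaks held 73.3 and 53.6 reads under that scaling at 5 mM and 58.8 and 53.4 at 25 mM, which overlapped.

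**Figure D4:**
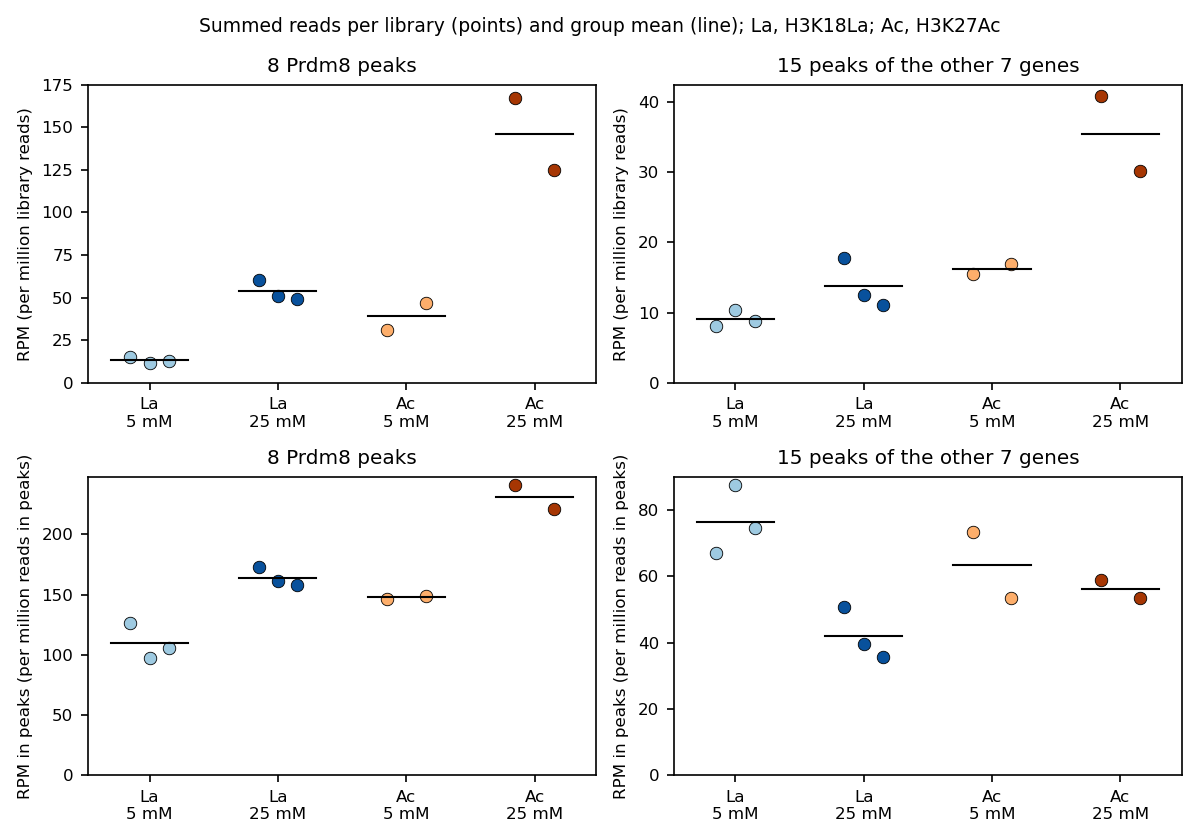
Reads summed over the 8 Prdm8 peaks (left) and over the 15 peaks of the other 7 genes (right), scaled to 1000000 reads of the library (RPM, top) and to 1000000 reads in peaks (bottom), for each library (points) with group means (lines). Prdm8 is higher at 25 mM under both scalings, whereas the other genes are higher at 25 mM in the top panel and, for H3K18La, lower at 25 mM in the bottom panel.

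In the model, centring each library on the median of all peaks moved the median log2 difference of the table from 0.76 to 0.13 for H3K18La and from 0.58 to 0.14 for H3K27Ac. Prdm8 peaks 2, 3, 4 and 5 kept their H3K18La call under it, at 1.20, 1.56, 1.22 and 1.06, and so did the Lhx3 promoter, at -3.25 (adjusted p = 0.0115). Of the H3K27Ac calls, those of Prdm8 peaks 2, 3, 5 and 7 were kept. The median over the other 15 peaks came to -0.0048 for H3K18La, with 7 above and 8 below 0. For H3K27Ac it was 0.56, with 12 above and 3 below 0 and none called. When libraries were scaled to reads in peaks no peak of the table was called for either mark, 7 of the 8 Prdm8 peaks had an H3K18La difference above 0, with a median of 0.59, and peak 6 was at -0.016. All 8 stayed above 0 for H3K27Ac, with a median of 0.47.

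Other genes known from bipolar cells or their development were taken from 2 lists, several of whose members photoreceptors also use. Of 15 further transcription factors of bipolar development or subtype, 12 had a promoter peak. H3K18La rose at 7 of the 12 and fell at none, where 20.1% of promoters (1 per gene) were called higher, and H3K27Ac rose at 9, where 42.5% were called higher. Their median log2 differences were 1.30 and 1.39. H3K18La rose at Neurod1 (2.64, adjusted p = 0.000449) and Crx (1.96, adjusted p = 0.00434), both of which also act in photoreceptors, and at Neurod4 (1.77, adjusted p = 0.00539), a bHLH factor of bipolar genesis. Otx2, a homeodomain factor that photoreceptors and bipolar cells both require, rose in H3K18La by 1.27 (adjusted p = 0.0362), although its 5 mM and 25 mM libraries overlapped (means of 6.92 and 14.7 RPKM, SD 5.52 and 2.17, n = 3 each). Prdm1, which restrains bipolar fate in favour of photoreceptors, rose in H3K18La by 1.33 (adjusted p = 0.00593), and the list also had rises at Meis2 (1.32) and Nfix (1.55).

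Of 22 genes that mature bipolar cells use in signalling, 18 had a promoter peak. H3K18La rose at 6 of the 18 and H3K27Ac at 11, none fell, and the medians were 0.82 and 1.55. Over all promoters the shares called higher were 20.1% and 42.5% and the medians 0.88 and 1.16. Trpm1, the cation channel of ON bipolar cells, rose in H3K27Ac by 2.80 (0.886 to 9.31 RPKM, adjusted p = 0.00558) and differed in H3K18La by 0.63 (adjusted p = 0.508). Grm6, the glutamate receptor that acts on this channel, rose in H3K27Ac by 1.87 (0.892 to 4.43 RPKM, adjusted p = 0.0154) and differed in H3K18La by -0.24 (adjusted p = 0.808). Gnb3, the G protein subunit of ON bipolar cells and cones, rose in both marks, by 2.26 (adjusted p = 0.000447) for H3K18La and 2.79 (adjusted p = 0.00877) for H3K27Ac. H3K18La also rose at Nyx, Lrit3, Gng13, Gnb5 and Cacna1s. The difference between the marks was not called at any gene of either list.

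Defining markers of several retinal cell types moved with glucose as well. All 7 rod markers had a promoter peak, and their summed H3K18La was 11.7 to 15.3 RPKM at 5 mM and 56.0 to 138 RPKM at 25 mM, all 7 rising. Of 6 bipolar markers, 4 had a promoter peak, with a sum of 3.22 to 5.93 RPKM of H3K18La at 5 mM and 6.36 to 7.93 RPKM at 25 mM, where none rose. Their H3K27Ac sum was 4.12 and 9.32 RPKM at 5 mM and 18.2 and 29.5 RPKM at 25 mM, and 2 of the 4 rose, where 42.5% of all promoters were called higher. Pcp2 and Prkca, the other bipolar markers, had no promoter peak. No marker with a promoter peak was without reads in every library of a group, and the summed levels of cone, Müller glia and amacrine markers were also higher at 25 mM in both marks without overlap, as single promoters were in 45.0% of genes for H3K18La and 79.3% for H3K27Ac. H3K18La rose at 2 of 5 cone, 0 of 5 Müller glia and 1 of 3 amacrine markers with a promoter peak, where 20.1% of all promoters were called higher. H3K27Ac rose at 7 of 7 rod, 1 of 5 cone, 2 of 5 Müller glia and 1 of 3 amacrine markers. Of the ganglion cell, horizontal cell and microglia markers, 3 of 6, 1 of 4 and 1 of 5 had a promoter peak. The microglia marker was higher at 25 mM without overlap, with H3K18La of 0.528 to 1.66 RPKM at 5 mM and 1.94 to 3.87 RPKM at 25 mM and H3K27Ac of 0.332 and 1.04 RPKM against 1.06 and 1.496 RPKM. The ganglion cell sum overlapped for H3K18La (0.833 to 2.44 RPKM at 5 mM, 2.19 to 2.78 RPKM at 25 mM) and was higher without overlap for H3K27Ac (0.891 and 2.93 RPKM against 3.19 and 3.88 RPKM), and the horizontal cell level overlapped in both marks, with H3K27Ac of 0.993 and 1.38 RPKM at 5 mM and 0.746 and 1.16 RPKM at 25 mM. The part of cell composition in the differences above was not tested.

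By likeness over the 10 libraries, the promoters of Zc3h18, Dop1a and Mybl1 came closest, among 12654 genes, to the 3 promoters with a mean RPKM of at least 1, those of Prdm8, Lhx3 and Lhx4. Their mean r was 0.71, 0.70 and 0.70. The r of Prdm8 with Lhx4 was 0.78 and with Lhx3 -0.11, where the median r of Prdm8 with all promoters was 0.79. The 10 libraries form 4 groups of mark and glucose, so these values describe shared differences between groups.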

How the data were processed

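CUT&Tag libraries of H3K18La (3 per glucose level) and H3K27Ac (2 per glucose level) from retinal explants were grouped by their titles, and the labels put all 10 in batch 1. The protocol text of the labels names an H3K9me3 antibody and a nuclease fusion, where the titles and the study's methods name H3K27Ac and a transposase, and the titles were followed. The authors aligned reads to GRCm38 with nf-core/cutandrun, called peaks with MACS, annotated them with ChIPseeker 1.34.1 (promoter from -1000 to 500 bp of a start site) and deposited RPKM values per peak, counted with csaw. A further deposited table holds the authors' own H3K18La fold changes and p-values from edgeR 3.40.2 and was not used.

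In every library 100% of RPKM values were whole multiples of 1 read (within 0.01), so reads were recovered. The RPKM denominators ranged from 1358008 to 7424470 reads, and whether they include the authors' window-based factors is not known. Floors of 3 reads cover counting error only. Differences were tested with limma 3.58.1 in R 4.3.3 (lmFit, eBayes with trend and robust moderation) on log2(RPKM + 0.5) over all 108253 peaks, each mark alone, and a glucose by mark interaction over all 10 libraries, with Benjamini-Hochberg adjustment at 0.05. This linear model replaced the study's count model because the unit was RPKM. The code was tested on simulated data. Alternatives were pseudocounts of 0.1 and 1, a mean RPKM of at least 1, 2 other scalings, moderation without robust, voom on recovered reads, a replicate block, a threshold of 0.01, leaving out each library, and, chosen after seeing the data, averaging the 5 mM H3K18La replicates 2 and 3, whose reads differed least of all pairs (chi-square per degree of freedom 1.04) but beyond sampling noise (p = 1.2e-05).

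The 8 genes and the lists were chosen with earlier results of these data known. The text names, per gene, the promoter peak and the other peak with the highest mean RPKM, per mark the 3 largest and 3 smallest differences, and the 3 promoters of highest mean Pearson r. Prdm8 peak 7 is among the 3 largest differences of each mark and so falls under this rule. The peaks given to other genes were named after their values were seen. So were, outside the rule, Prdm8 peaks 1 and 4, Lhx4 peaks 2 and 4 and Irx5 peak 3. Genome sequence came from RefSeq GRCm38.p6, and 99.7% of 32058 shared transcripts had the same coordinates in GENCODE M21. Python 3.11.15 with numpy 2.4.6, pandas 2.3.3, scipy 1.17.1 and matplotlib 3.10.9 was used. The values of 1 gene of the list of further bipolar transcription factors are not reported here.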

Additional observations from a re-analysis of the deposited data

Results flagged for a closer look

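The Lhx3 promoter was set apart because H3K18La was lower in every 25 mM library and H3K27Ac was higher in every 25 mM library than in any 5 mM library of the same mark. The log2 difference of H3K27Ac minus that of H3K18La was 4.34. In the glucose by mark interaction of limma its adjusted p was 0.971 (unadjusted p = 0.000621), and over the alternatives the adjusted p ranged from 0.50 to 1. Its H3K18La rests on 8 reads over 3 libraries, and its H3K27Ac difference of 1.71 was 0.30 without replicate 1 at 5 mM. The contrast was known from earlier results of these data and is not independent of the choice of genes.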

How the results depend on the processing

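Of the 23 peaks, 8 were called for H3K18La, and 6 to 8 under every alternative except centring on the median of all peaks (5) and scaling to reads in peaks (0). Leaving out 1 library gave 7 to 8. For H3K27Ac, 12 were called, and 12 to 14 for a pseudocount of 1, among peaks averaging 1 RPKM or more and by voom. The count was 4 with centring and 7 with the replicate block. It was 0 with a pseudocount of 0.1, with scaling to reads in peaks, with moderation without robust, at a threshold of 0.01 and without any of the 4 libraries (0 to 0), and the lone library left in a group was then assumed to vary like the other group. In the same fits the whole table had 0 calls, except at 0.01 (86). The interaction called 0 of the 23 in each alternative. H3K18La at Prdm8 peak 6 turned to -0.016 when scaled to reads in peaks. Replicate numbers were not taken as pairing the samples, since deviations of same-numbered libraries correlated by 0.013 to 0.029, and the block kept 8 calls for H3K18La. For named peaks and single alternatives, 229 H3K18La values kept direction and call, 18 lost the call, 1 called value reversed and 16 values that passed in neither fit changed sign. Of the H3K27Ac values 131 kept both, 72 lost the call, 4 gained it and 13 that passed in neither fit changed sign. At 7 of the 23 peaks each 5 mM H3K18La library had at most 3 reads.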
